A study of Salmo salar with 12 samples.

Results

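The genes TOMM7 (CUST_10062_PI426552878), ABHD10 (CUST_27233_PI426552878), ABHD11 (CUST_787_PI426552878), ADCK5 (CUST_33475_PI426552878) and PRDX3 (CUST_8516_PI426552878), each read by the 1 probe named, code for mitochondrial proteins outside the respiratory complexes and were followed across control and uranium-exposed liver of Atlantic salmon (Salmo salar). They are 5 of the 55468 salmonid probes on the array, and all 5 were among the 29456 probes tested. Juvenile salmon (parr) were last fed 48 h before transport, were then acclimated to lake water, and no later feeding is reported. The fast was thus longer than the exposure. For the exposure they were held in static lake water and in the dark for 48 h. Depleted uranium was added as uranyl acetate at 0 (control), 0.25 (low U), 0.5 (medium U) or 1.0 mg/L (high U). Per group, 3 liver RNA samples, which the methods take from single fish, were each read on 1 one-colour array, and p-values measure the spread between these samples. The control fish shared the transfer, the fasting and the dark with the exposed fish. The tank volume and fish loading in the methods correspond to a single tank per group, so tank and dose cannot be told apart. The genes were selected on the exposed against control values of these same arrays, so their differences from the control are a description and carry no test. Differences between the doses were tested, although the study's one-way test behind the gene names spanned all 4 groups.

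Nearly all mitochondrial proteins are coded in the nucleus, made in the cytosol and brought in through the TOM complex of the outer membrane, after which the TIM complexes sort them to the inner membrane and the matrix. TOMM7 is a small subunit of the TOM complex that, in yeast and human cells, affects how the complex is assembled. ABHD10 and ABHD11 are serine hydrolases with the alpha/beta hydrolase fold that work in the matrix: human ABHD10 removes fatty acyl groups from proteins, and human ABHD11 protects the lipoyl cofactor of 2-oxoglutarate dehydrogenase. ADCK5 belongs to the UbiB family of kinase-like proteins, whose best known member, COQ8A, is needed to make ubiquinone. PRDX3 is the matrix peroxiredoxin, which reduces hydrogen peroxide with electrons from the mitochondrial thioredoxin, TXN2. Hepatocytes are rich in mitochondria and produce peroxide there as a by-product of respiration.

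The array files give probe identifiers only. A name was tied to a probe by equating the fold change that the study lists for the name with the fold change computed from the deposited table of log2 values (relative tolerance 2e-05), and 695 probes received 1 symbol in this way. Names were therefore at hand only for probes the study called. The probes were designed on salmon and trout contigs and single expressed sequence tags, and duplicate copies of a salmonid gene can share a probe, so each value is that of a probe and not of 1 gene copy. The 6 probes named for the hepatocyte genes F7, F9, F10 and TDO2 were well above background on all 12 arrays, and 14 of the 18 hepatocyte markers listed, like all 22 markers listed for blood, immune, muscle and pancreas cells and the mitochondrial genome, had no named probe. All 6 hepatocyte probes were higher in exposed than in control liver (log2 difference 1.07 to 2.33), and their part in the results below was not tested. Of the 651 tested probes with 1 symbol, 68.5% were called higher in exposed liver, against 7.92% of all tested probes. Nothing is therefore read from the hepatocyte count. In bulk liver RNA, a change in the number of cells of a type and a change in RNA per cell cannot be told apart.

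Brightness differed between the groups before any scaling. The 75th percentile of the probe intensities was 55.7 to 73.8 on the control arrays, 113 to 138 in low U liver, 122 to 154 in medium U liver and 68.8 to 94.7 in high U liver, and no salmonid spot was saturated. Against 7 probes of spike-in RNA, mixed into each RNA sample, this percentile was higher on the 9 exposed than on the 3 control arrays by 0.64 on the log2 scale (p = 0.0273, exact permutation test, two-sided, 220 regroupings). By group it was -4.83 to -4.36 on the control arrays, -3.98 to -3.88 for low U, -3.83 to -3.44 for medium U and -4.44 to -4.29 for high U, so that low and medium U lay above the control and high U overlapped with it. Levels below are log2 intensities relative to the 75th percentile of the same array, which takes out that shared shift. Each of 3 slides held 1 array of every group. In the authors' own table of log2 values, 6 of the 12 columns followed an array of the same group with another replicate number (correlation across probes at least 0.95 with that array, at most 0.15 with the array of their own label), so replicate numbers below are those of the array files, and group means are untouched by the difference. Read by those columns, the replicate number was the slide number in 12 of 12 cases.

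All 5 genes were higher on each of the 9 exposed arrays than on each of the 3 control arrays. Over all tested probes, 8.41% had every exposed array above every control array. The differences fell into 3 sizes: below 1 on the log2 scale for TOMM7 and ABHD11, near 1.5 for PRDX3, and above 2 for ABHD10 and ADCK5 as measured. This order was not kept under an alternative background correction, given in the last section. With the call used here (adjusted p below 0.05 in limma and a fold change of at least 1.5), 4 of the 5 were called in low U liver, 4 in medium U liver, 4 in high U liver and 5 in all exposed arrays together. Over all probes, 6.28% were called for low U (4.08% as higher), 11.5% for medium U (6.54% as higher), 3.59% for high U (2.5% as higher) and 13.3% for all exposed arrays (7.92% as higher), and since the genes were picked for these contrasts nothing is read from their counts. ABHD11 was the gene not called at single doses, and with slide as a block it was called at low and at high U, which made the counts 5, 4 and 5. With quantile normalization it was called at all 3 doses. The count at high U was 2 without control replicate 1, 1 without high U replicate 2 and 2 without high U replicate 3. When only the groups compared entered the fit, the counts were 0 in low U liver, 3 in medium U liver and 0 in high U liver.

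**Figure D1:**
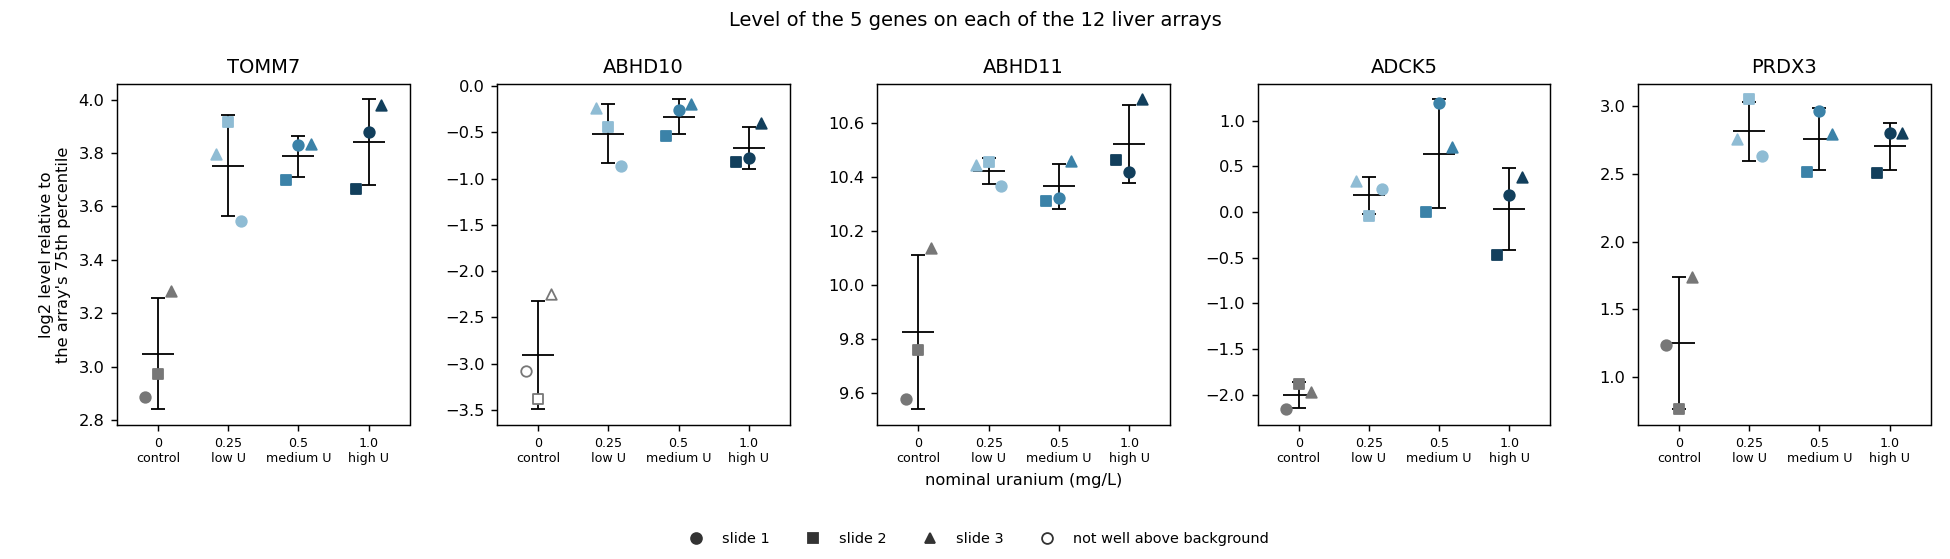
Level of each of the 5 genes on each array, as log2 intensity relative to the 75th percentile of the array (vertical axis, a scale of its own per gene) against nominal uranium (mg/L, 3 arrays per group). Bars give the mean and SD of 3 arrays, the marker shape the slide, and open symbols arrays where the probe was not well above background; all 9 exposed arrays lie above all 3 control arrays for every gene.

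TOMM7, the import subunit, had levels of 2.89, 2.97 and 3.28 on the control arrays, 3.80, 3.92 and 3.55 in low U liver, 3.70, 3.83 and 3.83 in medium U liver and 3.67, 3.88 and 3.98 in high U liver (log2, replicates 1 to 3). The lowest exposed array, low U replicate 3, was above the highest control array, control replicate 3. Group means were 3.05 ± 0.21 in control liver, 3.75 ± 0.19 in low U liver, 3.79 ± 0.08 in medium U liver and 3.84 ± 0.16 in high U liver (SD, n = 3 each). These correspond to 1.63-fold, 1.67-fold and 1.73-fold the control at low, medium and high U. The order of the means followed the dose, but neighbouring doses differed by 0.04 and 0.05, which is less than the SD within any of the exposed groups. Within slides 1, 2 and 3, high U minus control was 0.99, 0.69 and 0.70.

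ABHD11, the hydrolase linked to the lipoyl cofactor, had a small difference of the same kind. Its levels were 9.58, 9.76 and 10.14 in control liver, 10.44, 10.46 and 10.37 in low U liver, 10.31, 10.32 and 10.46 in medium U liver and 10.46, 10.42 and 10.69 in high U liver (log2). Its spot was far above its local background on every array, with an intensity of 47834 to 79200 in control liver, 155887 to 189029 in low U liver, 170491 to 195169 in medium U liver and 96258 to 154611 in high U liver. The unscaled intensity thus peaked in medium U liver, whereas the scaled level was highest in high U liver. Group means were 9.82 ± 0.29 in control liver, 10.42 ± 0.05 in low U liver, 10.37 ± 0.08 in medium U liver and 10.52 ± 0.14 in high U liver (SD, n = 3 each), or 1.51-fold, 1.46-fold and 1.62-fold the control. Control replicate 3 reached 10.14, which is 0.18 below the lowest exposed array, and the control arrays were spread more widely than those of any dose. Within slides 1, 2 and 3, high U minus control was 0.84, 0.70 and 0.55. The difference between all exposed and control arrays was 0.61, and it was 0.49 without control replicate 1 and 0.58 without control replicate 2, where ABHD11 was no longer called.

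PRDX3, the peroxide scavenger of the matrix, lay between the small and the large differences. It had levels of 1.24, 0.77 and 1.74 in control liver, 2.76, 3.05 and 2.63 in low U liver, 2.51, 2.96 and 2.80 in medium U liver and 2.50, 2.80 and 2.80 in high U liver (log2). The gap between the highest control array and the lowest exposed array was 0.76, and the control arrays alone spanned 0.97. Group means were 1.25 ± 0.49 in control liver, 2.81 ± 0.22 in low U liver, 2.76 ± 0.23 in medium U liver and 2.70 ± 0.17 in high U liver (SD, n = 3 each), which are 2.96-fold, 2.85-fold and 2.74-fold the control. The means declined slightly with dose, by steps smaller than the SD of the groups. On slide 2, which held the lowest control array and the highest low U array, low U minus control was 2.28, against 1.39 on slide 1 and 1.02 on slide 3.

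ABHD10, the acyl-protein hydrolase, was not well above background on any of the 3 control arrays and was well above it on all 9 exposed arrays. Its background-subtracted intensity was 8.65, 5.29 and 14.8 in control liver, 95.1, 98.7 and 69.6 in low U liver, 105, 127 and 106 in medium U liver and 38.6, 51.4 and 70.9 in high U liver. The spot's own signal was 1.38 to 1.80 times its local background on the control arrays. On the exposed arrays it was 2.44 to 5.67 times the local background. Since the control level is only an upper limit, the difference is given as a lower bound, for which each control array was set to its lowest signal among probes well above background where that was higher. Under that rule, ABHD10 was at least 3.67-fold higher in low U liver than in control liver. The bounds were 4.17-fold in medium U liver and 3.30-fold in high U liver. Limits differ between spots: on control replicate 3, ABHD10 at -2.25 (log2) was not well above background, while the NQO1 probe at -2.39 was. The bounds therefore hold for the rule used and are not strict limits. Measured levels were -2.91 ± 0.59 in control liver, -0.52 ± 0.32 in low U liver, -0.33 ± 0.19 in medium U liver and -0.67 ± 0.23 in high U liver (log2, SD, n = 3 each).

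ADCK5, the UbiB kinase-like gene, had the widest range of the 5 over the 9 exposed arrays, 1.66 on the log2 scale. Its levels were -2.16, -1.88 and -1.97 in control liver, 0.34, -0.04 and 0.25 in low U liver, 0.01, 1.19 and 0.71 in medium U liver and -0.47, 0.19 and 0.38 in high U liver (log2). The probe was well above background on all 12 arrays, although the control intensity averaged only 16.5, with a spot error of 16.6% to 21.4% as the scanner software estimates it. Group means were -2.002 ± 0.14 in control liver, 0.18 ± 0.20 in low U liver, 0.64 ± 0.60 in medium U liver and 0.03 ± 0.45 in high U liver (SD, n = 3 each), or 4.54-fold, 6.23-fold and 4.10-fold the control. Slide 2 held the lowest array of each exposed group and the highest control array. Medium U minus control was 3.35 on slide 1, 1.88 on slide 2 and 2.68 on slide 3.

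Between doses, 0 of the 5 genes were called, and 0% of all probes were called in any of the 3 pairs of doses. At an unadjusted p below 0.05 there were also 0 of the 5 genes, against 584 probes for medium U with low U, 1905 for high U with medium U and 1427 for high U with low U, and the methods' one-way test with a Tukey step called 16, 127 and 57 probes in these pairs and 0 of the 5 genes. The largest of the 15 differences between doses was that of ADCK5 between high and medium U, at -0.60 (log2, 95% interval -1.28 to 0.07, adjusted p = 0.814 in limma). It was negative on each slide, at -1.0035, -0.47 and -0.33 on slides 1, 2 and 3, and with slide as a block its adjusted p in limma was 0.475. ABHD10 was likewise lower at high than at medium U on each slide, by 0.52, 0.28 and 0.21 on the log2 scale on slides 1, 2 and 3, a difference of -0.34 (95% interval -0.98 to 0.30). ABHD11 went the other way, higher at high than at medium U by 0.10, 0.15 and 0.23 on these slides. TOMM7 and PRDX3 had slides of both signs. For TOMM7 the 3 differences between doses were 0.04, 0.05 and 0.09, and their 95% intervals lay between -0.35 and 0.47. For ABHD11 and PRDX3 the 95% intervals lay between -0.44 and 0.55 and between -0.66 and 0.50. With 3 arrays per group, changes within these intervals are not excluded, and the interval ends are not a detection limit for the call. Over all probes the smallest adjusted p in limma was 0.680 for medium with low U. It was 0.409 for high with medium U and 0.568 for high with low U, so larger changes could also go uncalled.

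**Figure D2:**
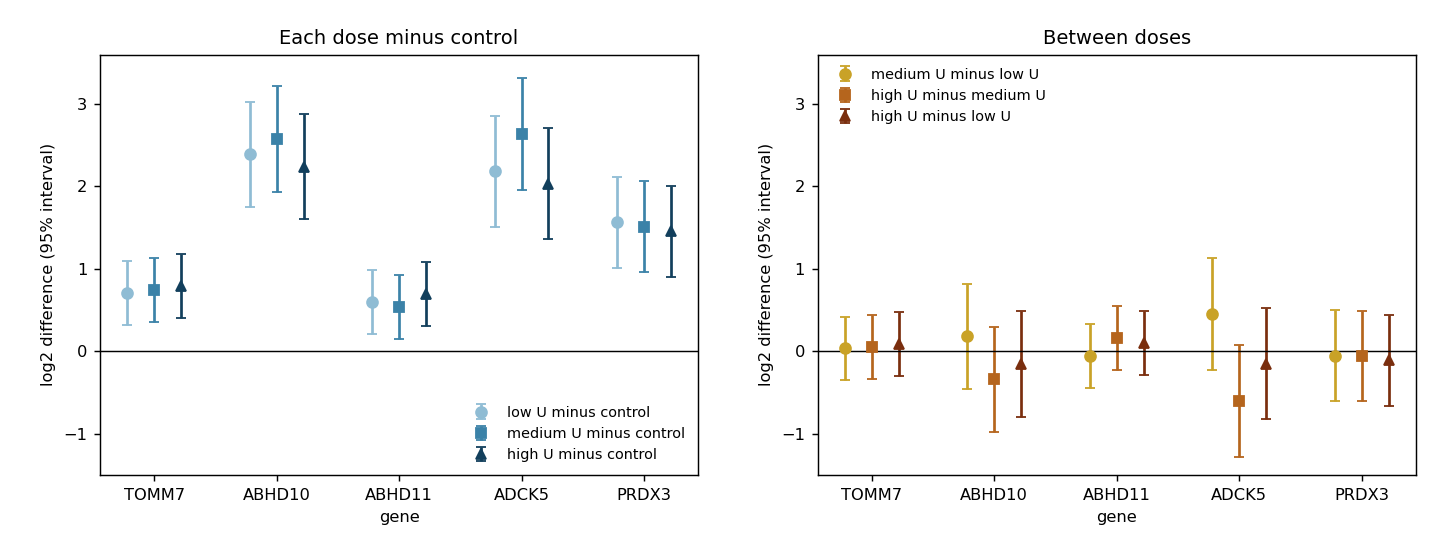
Log2 difference (vertical axis, with its 95% interval from limma over 12 arrays) of each gene for each dose minus control, on the left, and between doses, on the right. The left intervals describe genes picked for that contrast, and the ABHD10 control level is an upper limit; on the right all 15 intervals span 0.

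The answer about doses depended on what the arrays were scaled to. Relative to the spike-in probes, the high U arrays were dimmer than the medium U arrays for most probes, with a median over all tested probes of -0.79 between high and medium U (log2). On that scale 43.7% of all probes were called, and TOMM7 differed by -0.71 (adjusted p = 0.0426 in limma), ABHD10 by -1.10 (adjusted p = 0.0332) and ADCK5 by -1.36 (adjusted p = 0.0197), and ABHD11 by -0.60 and PRDX3 by -0.82 without passing the threshold. Both scales subtract 1 number per array, so they differ by the same shift for every probe measured on all arrays. Against the control, all 5 genes remained higher in all exposed arrays under spike-in scaling, by 1.39 for TOMM7, 1.26 for ABHD11, 2.15 for PRDX3 and 2.93 for ADCK5, where the median over all probes was itself 0.69 and 14124 of 14307 calls were higher, against 2332 of 3930 on the 75th percentile scale.

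**Figure D3:**
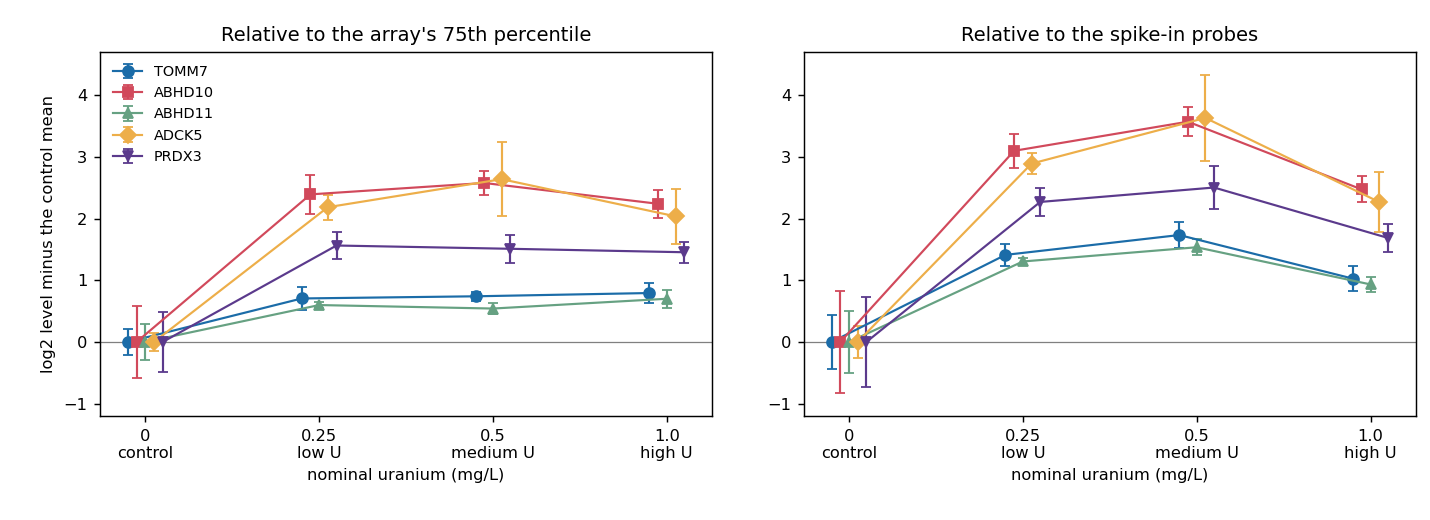
Mean log2 level minus the control mean (vertical axis, bars are the SD of 3 arrays) against nominal uranium (mg/L) for the 5 genes, scaled to the 75th percentile of each array on the left and to the spike-in probes on the right. On the left the doses of a gene differ by at most 0.60; on the right every gene is highest in medium U liver, with high U lower than medium U by 0.60 to 1.36.

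The profiles of the genes over the 12 arrays were compared by the root mean square of their differences after each probe was centred on its own mean, as a description. TOMM7 and ABHD11 were the closest pair among the 5, at 0.11 on the log2 scale, against a median of 0.50 between TOMM7 and all 29288 probes with 12 values. TOMM7 and PRDX3 followed at 0.38 and ABHD10 and ADCK5 at 0.39, and ABHD11 and ADCK5 were the farthest apart, at 0.84. The 3 probes nearest to TOMM7 were those of QDPR, which regenerates tetrahydrobiopterin, of PQBP1, and CUST_23160_PI426552878, at 0.09 each. The probes nearest to ABHD10 were OSTA, a bile acid transporter subunit (0.12), UGT1, a glucuronosyltransferase (0.15), and XBP1, a transcription factor of the unfolded protein response (0.18). These distances use the ABHD10 control readings, which were not well above background, so they hold for the readings only and their order is not settled. The probes nearest to ADCK5 were GLT8D1, NQO1 and LRG1, at 0.25 each. Among the control arrays, GLT8D1 and NQO1 were well above background on replicate 3 only, so their distances rest partly on readings near the background. PRDX3 had UQCR, a subunit of complex III, at 0.07, TIMM17A, a subunit of the inner membrane translocase, at 0.13 and BCAP31, an endoplasmic reticulum membrane protein, at 0.13. The nearest probes of ABHD11 were CUST_1855_PI426552878, CUST_12231_PI426552878 and CUST_54177_PI426552878, at 0.08, 0.08 and 0.09, and have no name here. The points share arrays and scaling, and 1 shared step between control and exposed arrays makes any 2 probes of like size alike.

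UQCR, the neighbour of PRDX3, had levels of -0.72, -1.29 and -0.38 in control liver, 0.55, 0.85 and 0.55 in low U liver, 0.53, 0.79 and 0.67 in medium U liver and 0.40, 0.70 and 0.73 in high U liver (log2). All 9 exposed arrays were above the 3 control arrays, and the probe was picked for its likeness to PRDX3, so nothing further is read from their shared pattern.

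Related genes were taken from lists by symbol, and 29 probes of them had a name, of which 27 were tested. Without the 5 genes there were 22, of which 17 were called higher and 2 lower in exposed than in control liver. Among all 651 tested probes with a symbol, 68.5% were called higher, since only probes the study called have names, so the listed probes stand near their background and the tallies are not independent evidence. The median log2 difference was 0.97 over the 22 listed probes, 0.92 over the named probes and 0.04 over all tested probes. With the 4 listed probes that were not well above background on any control array set to their lower bound under the ABHD10 rule, the median of the 22 was 0.75.

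In protein import, the inner membrane translocase subunit TIMM17A was at 1.83, 1.97 and 1.87 in low U liver, 1.72, 2.09 and 2.08 in medium U liver and 1.67, 1.97 and 1.96 in high U liver, against 0.67, 0.14 and 0.86 in control liver (log2 levels). All 9 exposed arrays were above the 3 control arrays, as for 8.41% of all tested probes, and the log2 difference was 1.35. TIMM17A has a name because the study called it, and it is among the 3 probes nearest to PRDX3. Nothing further is therefore read from its pattern. DNAJC19, a co-chaperone at the translocase motor, and CLPX, the unfoldase of the matrix protease ClpXP, were called as well, at 0.87 and 1.02. TIMM8A, a chaperone of the intermembrane space, was well above background on the 3 medium U arrays only, and was not called over all exposed arrays. The study's symbol for this probe is TIMM8A, but its description names homolog b, so which paralogue it reads is not settled.

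In peroxide and thiol defence, PRDX2, the cytosolic relative of PRDX3, was at 1.203, 1.02 and 0.69 in low U liver, 1.13, 1.67 and 1.15 in medium U liver and 0.36, 0.94 and 0.66 in high U liver, against -1.69, -1.83 and -0.73 in control liver (log2 levels). That is a log2 difference of 2.40, against 1.51 for PRDX3. TXN2, the electron donor of PRDX3, was called at 0.65, and was not called without control replicate 1 (0.65) or control replicate 2 (0.56). NQO1, a quinone reductase, was called at 2.26 with 1 of 3 control arrays well above background, and GLRX5, a mitochondrial glutaredoxin of iron-sulphur cluster assembly, at 1.12.

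Among the other hydrolases, ABHD5, the activator of the lipid droplet triglyceride lipase, was not well above background in control liver. Under the rule used for ABHD10 it was at least 1.74-fold higher in exposed liver. ABHD14B had a log2 difference of 0.48 and was not called. ABHD7 was not well above background on all arrays of any group and was not tested. COQ9, a ubiquinone synthesis protein and the only other probe of the UbiB and ubiquinone list, was called at 1.67. Of 11 tested probes of mitochondrial ribosome, carrier and DNA maintenance genes, 8 were called higher, among them MRPL39 at 1.79 (1 of 3 control arrays well above background), SSBP1, which binds single-stranded mitochondrial DNA, at 1.07 and SLC25A20, the acylcarnitine carrier, at 1.34. MRPS9 and MRPL33, also called, were not well above background on any control array. Under the rule used for ABHD10, MRPS9 was at least 1.35-fold higher. The MRPS9 probe was well above background on 7 of the 9 exposed arrays, and the bound uses the readings of all 9. No fold is given for MRPL33. MRPL33 was well above background on the 3 medium U arrays only, and its high U readings differed from the control by 0.06 (log2). MRPL33 passed the filter through medium U alone, so its call for all exposed arrays is one of readings. The carriers SLC25A36 and SLC25A45 were called lower, at -0.62 and -0.80, but relative to the spike-in probes, which adds the shared shift of 0.64 to every probe, they were at 0.03 and -0.15 and were not called. SLC25A5, an ADP/ATP carrier, was at 0.55 and was not called.

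**Figure D4:**
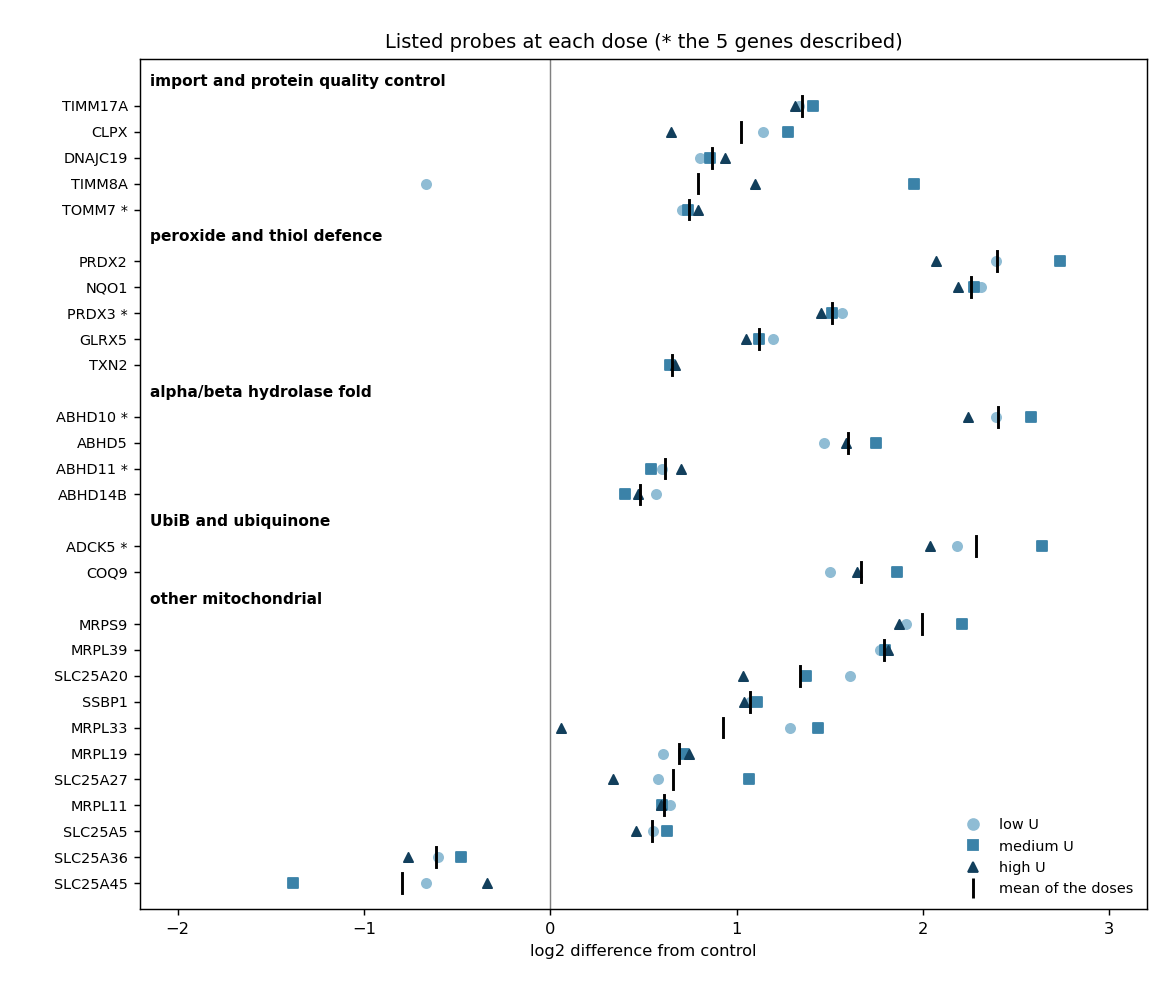
Log2 difference from control (horizontal axis) at low, medium and high U for the 27 tested probes of the lists, with the mean of the doses as a vertical stroke and an asterisk on the 5 genes described. Of the 27 strokes, 25 lie to the right of 0, SLC25A36 and SLC25A45 lie to the left, and TIMM8A has doses on both sides. Strokes show readings, and 5 of the probes were not well above background on any control array. Of these, TIMM8A and MRPL33 have lower bounds of -0.91 and -1.09, so their direction is not settled.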

How the data were processed

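Liver RNA of 12 fish in 4 groups was measured on one-colour (Cy3) Agilent salmonid arrays. The authors scanned the arrays and extracted them with Agilent Feature Extraction 10.7, and deposited for each spot a background-subtracted intensity with no scaling between arrays. Log2 values of 40267 probes, which the authors computed in GeneSpring, were a further deposited table, whose normalization method is not given in the sources used here. Every probe in it has a median of 0 over the 12 columns, so it is centred per probe. It served for naming and as an alternative only. The study's list of called probes, which holds its own fold changes and p-values, was used for names only: of 1995 rows read, 1954 matched 1 probe and 41 matched several and were left out.

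Here, spots marked as outliers were set to missing, log2 intensities of repeated spots were averaged, and each array's 75th percentile was subtracted. A probe was tested if well above background at all its spots on every array of at least 1 group, with at least 2 values per group. Groups were compared with limma 3.58.1 (lmFit, eBayes) in R 4.3.3, in 1 fit over 12 arrays, with two-sided p-values adjusted by Benjamini-Hochberg over 29456 probes. Alternatives were background correction, scaling, filter, outlier spots, block, samples in the fit, the methods' one-way test and leaving out each array. The steps were tested on simulated data. Named probes are the 5 genes, the listed probes with a unique name, and the 3 probes nearest to each gene. The genes and lists were chosen with earlier results of these data known. Arrays of a group are taken as separate fish, and their number limits the precision. No 2 arrays of a group held the same values (correlation at most 0.98). Other genes of the lists, qPCR and probe sequences were not analysed here. Figures were drawn with matplotlib 3.10.9 in Python 3.11.15.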

Additional observations from a re-analysis of the deposited data

Results flagged for a closer look

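Of 40 named probes checked over 3 pairs of doses, TIMM8A alone had every reading at 1 dose below the control mean and every reading at another dose above it. TIMM8A was below the control mean on all 3 low U arrays and above it on all 3 medium U and all 3 high U arrays. SLC25A16, a listed probe that was not tested, was not among those checked. Its readings were also below the control mean at low U and above it at high U, with no array well above background. The log2 levels of TIMM8A were -3.99, -4.25 and -4.53 in control liver, -4.54, -4.85 and -5.39 in low U liver, -1.82, -3.18 and -1.92 in medium U liver and -3.57, -2.98 and -2.94 in high U liver. The TIMM8A probe was well above background on the 3 medium U arrays and on none of the other 9, so the levels of the other groups are upper limits and no fall at low U is shown. The differences of TIMM8A between doses are therefore differences of readings, not of measured levels. Medium U minus low U read 2.62, and high U minus low U, both not well above background, read 1.76. Neither difference passed the threshold over all tested probes. The probe passed the filter through medium U alone, where it reads highest, and was flagged for these same readings. Its differences between doses are therefore a description and carry no test.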

How the results depend on the processing

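The number of genes called at low U and at high U was 0 and 0 (3 at medium U) when only the groups compared entered the fit. There the arrays of the other groups do not enter the estimate of the spread. With single arrays left out it ranged from 3 to 5 at low U, from 3 to 5 at medium U, from 1 to 5 at high U and from 4 to 5 for all exposed arrays. Between high and medium U it was 3 with spike-in scaling, which moves the median of all probes, and the TOMM7 difference reversed to -0.71. With normexp on the median spot signal, added after seeing the data because the files hold no mean spot signal for the planned version, an offset of 50 is added to every intensity, and dim probes shrink by construction: ABHD10 was at 0.44 and ADCK5 at 0.87 for exposed minus control, 10 of the 22 listed probes were called (19 otherwise), and MRPL33 and MRPS9 turned to -0.22 and -0.0368. With normexp TOMM7 and ABHD11 were at 0.97 and 0.96, above ADCK5 and ABHD10, so the order of sizes in the main fit was not kept. SLC25A36 turned to 0.0288 with spike-in scaling. Without control replicate 1 or 2, 15 of the 22 listed probes were called.

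By the numbers of the array files, replicates did not pair the arrays: of 18 same-numbered pairs of arrays in different groups, 6 had a correlation of deviations above 0.1. With a replicate block 3, 4 and 3 of the 5 genes were called at low, medium and high U, 5 for all exposed arrays and 0 between doses, and TOMM7 was the gene lost. Of 18 pairs on the same slide, 15 were above 0.1, with a mean of 0.23 against -0.12 for the other pairs. The slide is also the replicate number in the authors' table, and which replicate numbering is right is unknown. The slide itself is known for each array, but neither the main fit nor the permutation test of brightness used it. With slide as a block 5, 4 and 5 were called. Probes not well above background limit what can be measured: the share well above it was 45.1% to 49.3% of probes on control arrays and 45.7% to 61.5% on exposed arrays. Over all probes, 1849, 3378 and 1057 calls at the 3 doses became 1, 1655 and 1 with only the groups compared, 958, 1003 and 842 with the one-way test, 746, 13009 and 344 without the filter, and 13531, 19339 and 808 with spike-in scaling. With slide as a block they were 3612, 5160 and 1980. At high U there were 642 with the replicate block and 678 from the authors' value table. For all exposed arrays, 3930 calls became 14307 with spike-in scaling. With single arrays left out the calls ranged from 665 to 2741, from 1077 to 4186, from 163 to 1744 and from 1691 to 4725 in these 4 comparisons. Between high and medium U, 0 calls over all probes became 12877 with spike-in scaling and 6117 without the filter. The planned normexp on the mean spot signal and the promoter motif search were not run.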
